A study of Bos taurus with 60 samples.

Results

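The miRNAs of the imprinted DLK1-DIO3 region were examined in the liver of beef steers. Members were chosen by name, as every known bovine mature miRNA whose number is one of those that mark this region, and the rule used no measured value. It found 54 of the 1030 known mature miRNAs in the deposited lists, and 37 of the 38 numbers in the rule had at least 1 member. The series held small RNA libraries from the liver of 60 steers, 1 library per steer: 20 Angus, 20 Charolais and 20 Kinsella Composite (KC), a crossbred herd made by mating Angus, Charolais or hybrid bulls to a hybrid dam line, which therefore shares ancestry with both purebreds. In each breed 6 steers carried the label low-RFI, 6 the label high-RFI and 8 no RFI label. The study took the steers with the highest and the lowest RFI of each breed, so the unlabelled ones also came from these ends. RFI, residual feed intake, is the feed an animal eats beyond what its size and growth predict, so low-RFI steers are the efficient ones. All steers were castrated males raised on 1 ranch and finished on barley, as grain (75% of the diet) and as silage (20%), with rumensin pellets making up the remaining 5%. The study kept for the RFI groups the extreme steers whose miRNA profiles resembled those of the rest of their breed, so these groups are not a random draw. The labels of the 60 steers name 23 sires (7 Angus, 5 Charolais and 11 KC). The sire label of KC low-RFI replicate 3 begins with NA and may stand for an unknown sire, but it was counted as a separate one. Steers by the same sire are related, and p-values treat each steer as separate.

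The DLK1-DIO3 region is one of the best known imprinted regions of mammals. The chromosome inherited from the father expresses the protein genes DLK1, RTL1 and DIO3. The chromosome inherited from the mother expresses long noncoding RNAs (MEG3, antisense RTL1, MEG8 and MEG9), and the miRNA hairpins lie within these transcripts, many of them in a long array. In sheep, the callipyge mutation, which enlarges the muscles of the hindquarters, lies in this region. The miRNAs are abundant in the fetus, placenta and brain and fall in most other tissues after birth, liver included. miR-127, miR-136, miR-431, miR-432 and miR-433 lie on the strand opposite RTL1, and in mice they direct cleavage of its transcript. miR-379 lies at the start of the array that ends with miR-410 and miR-656, and in mouse liver it has been tied to the secretion of very low density lipoprotein. miR-370 has been tied to lipid metabolism in liver cells.

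Mature sequences, from the study's list of known bovine miRNAs (miRBase), are given for the members on which the results turn, 5′ to 3′, with the seed (bases 2 to 8, which pair with targets) in capitals. The first group holds the 4 most abundant members, and the next group some of the others called in a breed comparison. Then come the members that followed the others least closely and the miR-376 members, whose sequences are nearly alike.
bta-miR-127: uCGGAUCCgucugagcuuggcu
bta-miR-411a: aUAGUAGAccguauagcguacg
bta-miR-381: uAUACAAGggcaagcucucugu
bta-miR-410: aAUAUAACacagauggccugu
bta-miR-370: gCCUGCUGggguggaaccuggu
bta-miR-411c-5p: gGUUGAUCagagaacauacauu
bta-miR-432: uCUUGGAGuaggucauugggugg
bta-miR-380-3p: uAUGUAAUgugguccacgucu
bta-miR-154b: aGAGGUCUuccauggugcauucg
bta-miR-379: uGGUAGACuauggaacguagg
bta-miR-409a: aGGUUACCcgagcaacuuugcau
bta-miR-376a: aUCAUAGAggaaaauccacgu
bta-miR-376b: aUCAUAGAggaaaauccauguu
bta-miR-376d: aUCAUAGAggaaaauccacau
bta-miR-376e: aACAUAGAggaaaauccacauu

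A sequence was found for 47 of the 54 members, and these held 45 different seeds. Only miR-376a, miR-376b and miR-376d shared a seed with another member. miR-376a differed from miR-376b and from miR-376d at 1 of 21 aligned bases each, and miR-376d differed from miR-376e at 1 of 21, so counts among these 4 are uncertain. miR-411a, miR-411b and miR-411c-5p have different seeds in spite of their shared number. miR-496 shared its seed with miR-503-3p, which lies outside the region. The members therefore offered almost as many different seeds as sequences.

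RefSeq's cattle annotation (ARS-UCD2.0, used only for names and neighbours, because the counts were made on UMD3.1) placed 50 of the members' 52 precursor hairpins on chromosome 21. The other 2 precursors, both of bta-miR-544b, lie on chromosomes 13 and 24, and miR-544b had no count in any library. Along chromosome 21 the hairpins formed a proximal group of 8 (miR-493, miR-665, miR-431, miR-433, miR-127, miR-432, miR-136 and miR-370) and, after the widest gap, a distal group of 42 that began with miR-379 and miR-411a and ended with miR-410, miR-323b and miR-656. In the same span lay 8 other miRNA genes that the rule did not take, among them MIR1185, MIR3956 and MIR3957.

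Libraries held 1930859 to 6759381 counts of known miRNAs after averaging over precursors. The medians were 3720336 in Angus, 4405876 in Charolais and 5547018 in KC, so KC was sequenced most deeply. A miRNA with 3 counts in a library corresponded to 0.444 to 1.55 CPM (counts scaled to a library of 1e+06), which is the depth's limit on single steers. Levels are CPM scaled with TMM factors, and counting error is among the limits on their precision. All 60 libraries held the hepatocyte miRNAs, with miR-192 at a mean of 234300 CPM and miR-122 at 8127 CPM. The libraries of Charolais without RFI group replicate 7 and Charolais low-RFI replicate 1 resembled the other libraries least. They were picked by rank alone, without a cutoff, and are called below the libraries that stood apart. Their mean correlation with the other libraries over the tested miRNAs of at least 10 CPM was 0.970 and 0.974, against 0.977 to 0.989 for the rest, and results that rest on them are also given without them.

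The output of the region in liver came almost wholly from 2 miRNAs. miR-127 had a mean of 4990 CPM over the 60 steers (SD 1616, n = 60) and ranked 25th of the 1030 known miRNAs. Its level ran from 2455 to 10230 CPM with a median of 4630. miR-411a had a mean of 2535 CPM (SD 833, n = 60), ranked 33rd, and ran from 1217 to 4728 with a median of 2406. Together they made 92.7% of the members' summed CPM, and this share lay between 91.4% and 93.5% in every steer. miR-381 at 125 CPM and miR-410 at 122.3 CPM came next, 20.3-fold or more below miR-411a. Since reads of small RNA libraries depend on the ends of each molecule as well as on its amount, levels of different miRNAs are compared here only as read counts.

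A further 10 members had means between 10 and 100 CPM: miR-154c (57.2 CPM), miR-380-3p (46.5), miR-409a (38.2), miR-136 (30.2), miR-369-3p (22.9), miR-411c-5p (22.7), miR-432 (18.8), miR-379 (16.1), miR-369-5p (14.9) and miR-487b (14.6). Of the 14 members at 10 CPM or more, 3 lay in the proximal group (miR-127, miR-136 and miR-432) and 11 in the distal group. Another 17 members had means between 1.07 and 9.39 CPM, with miR-495 and miR-493 the highest among them. The remaining 23 averaged 0.891 CPM or less. miR-409b and miR-544b had no count in any steer, and 5 members reached 3 counts in none, which allows a level of up to 1.55 CPM in the shallowest library. Neighbours in the array could differ widely, since miR-379 stood at 16.1 CPM beside miR-411a at 2535 CPM, and miR-409b at 0 beside miR-409a at 38.2 CPM. The plot of levels along the locus shows these steps, with all 3 breeds close together at each named hairpin.

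**Figure D1:**
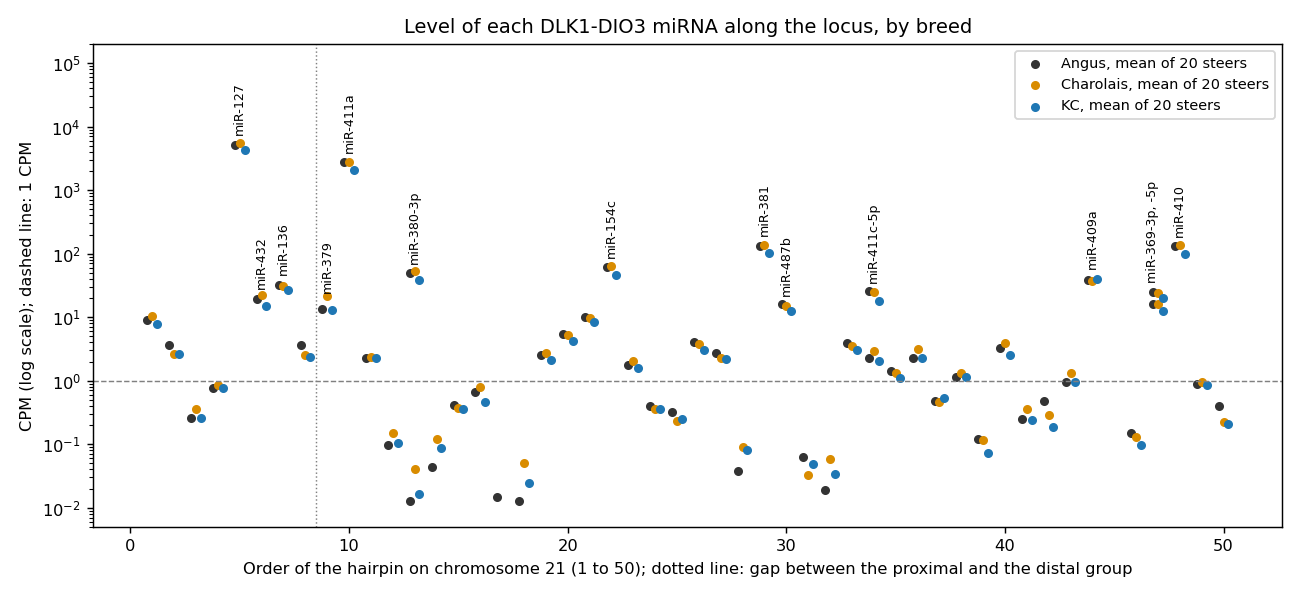
Mean level of each member (CPM, log scale) against the order of its hairpin on chromosome 21, with a point for each breed (mean of 20 steers). Members of at least 10 CPM are named, members at 0 are not drawn, and miR-127 and miR-411a stand above all others at 4990 and 2535 CPM over the 60 steers.

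Summed over the 54 members, the region gave 8117 CPM on average (SD 2558, n = 60), which was 0.813% of all counts of known miRNAs, and the lowest and highest steers differed 4.09-fold (3941 and 16116 CPM). Ratios between members varied from steer to steer by different amounts. The ratio of miR-127 to miR-411a averaged 1.997 (SD 0.299) and ran from 1.32 to 3.001. The ratio of miR-411a to miR-410, which come from opposite ends of the distal group, averaged 20.98 (SD 2.26). The coefficient of variation over steers was 32.4% for miR-127 itself. For the ratios it was 10.8% for miR-411a to miR-410, 14.98% for miR-127 to miR-411a, 15.02% for miR-410 to miR-381, 34.1% for miR-411a to miR-379 and 49.3% for miR-127 to miR-409a. The ratio of miR-411a to its neighbour miR-379 ran from 22.3 to 381.1, and that of miR-127 to miR-409a from 81.6 to 608. The steers at these far ends of miR-379 and miR-409a include both libraries that stood apart: miR-379 was 107 CPM in Charolais without RFI group replicate 7 against at most 28.03 in the others, and miR-409a was 9.03 CPM in Charolais low-RFI replicate 1 against at least 13.9.

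Members rose and fell together from steer to steer. After each breed's mean was subtracted, the median Pearson correlation of log2 CPM over all pairs was 0.77 for the 14 members of at least 10 CPM (91 pairs, 60 steers). It was 0.37 for the 35 members that passed the filter on low counts (595 pairs), and 0.184 for tested members once all libraries were thinned to 1 total. Over all 443 tested miRNAs the median was -0.000744, and between the 14 members and non-members of at least 10 CPM it was -0.0642. All pairs share their libraries, so these values are a description without a test. Within Angus, Charolais and KC alone the median of the 14 was 0.711, 0.795 and 0.803. Of the 91 pairs, 63 had a correlation over 0.7, and the highest was 0.930 for miR-411a with miR-410. Of the 28 pairs below 0.7, 24 held miR-379 or miR-409a.

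Correlations had similar sizes within and between the proximal and distal groups. Leaving out miR-379 and miR-409a, which were singled out after their values were seen, the median correlation was 0.769 within the proximal group (3 members), 0.803 within the distal group (9 members) and 0.793 between the groups. miR-127, from the proximal group, correlated at 0.908 with miR-410 from the far end of the distal group. miR-379 and miR-409a correlated with those 12 members at medians of 0.333 and 0.471, and with each other at 0.657. Without the 2 libraries that stood apart the medians were 0.491 for miR-379 and 0.688 for miR-409a, against 0.802 among the 12. The gap to the other members thus narrowed for both and was the wider one for miR-379. In the heat map of correlations, rows of low members are paler. The correlation of each member with the mean of the other members of at least 10 CPM had a median of 0.865 over the 14 members, 0.64 over the 6 members between 3 and 10 CPM and 0.349 over the 15 tested members under 3 CPM, and it was above 0 in all 35. Low counts themselves weaken a correlation, so the lower values of scarce members cannot be told apart from looser coupling.

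**Figure D2:**
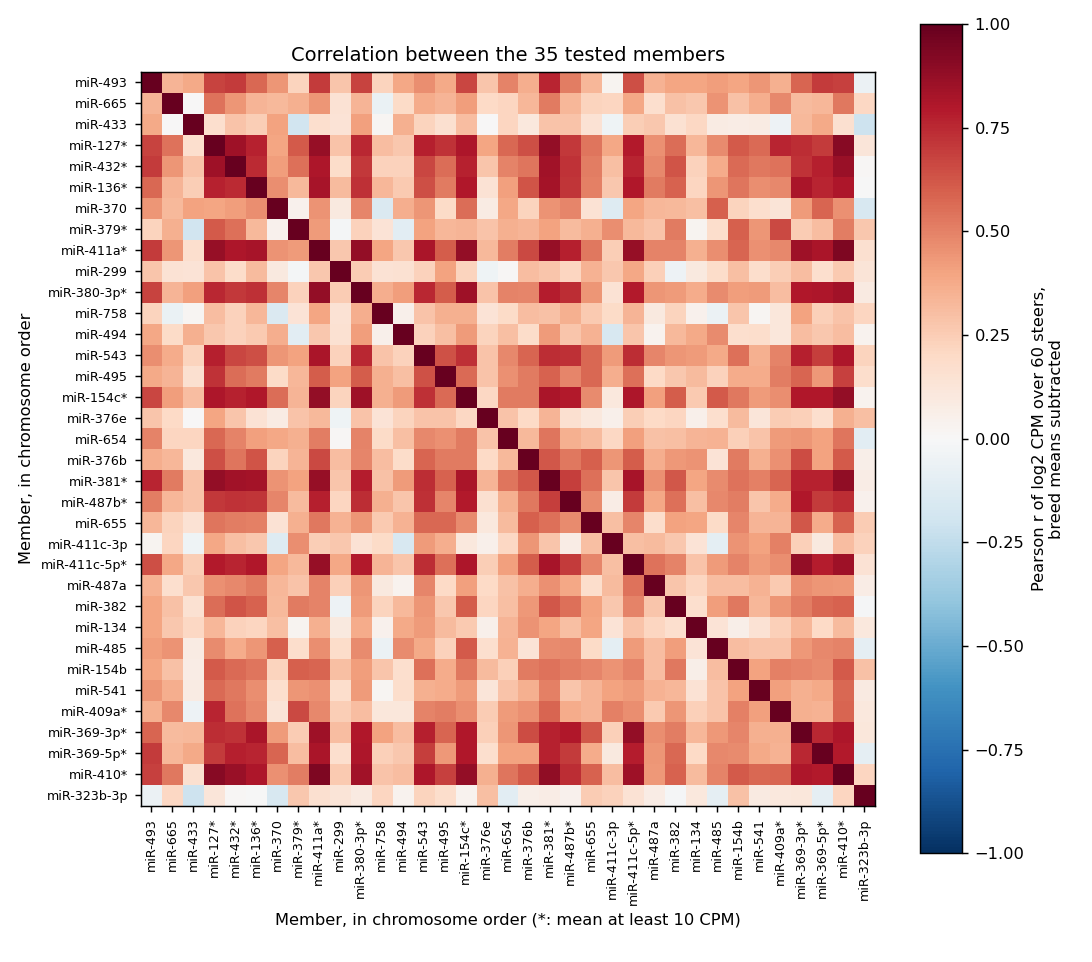
Pearson correlation of log2 CPM over 60 steers, breed means subtracted, for each pair of the 35 tested members in chromosome order, from blue (-1) through white (0) to red (1). Members marked with an asterisk average at least 10 CPM; among themselves they are dark red, with a median of 0.77, except for miR-379 and miR-409a.

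For 6 pairs fixed for rank or for a shared hairpin the correlation was tested with 100000 two-sided permutations within breeds, adjusted over the 6 pairs. miR-127 and miR-411a, the dominant pair, gave r = 0.868 and Spearman's rho = 0.814, with adjusted permutation p = 1.2e-05 for both, which is the smallest the permutations can give. Within single breeds the Angus steers gave r = 0.901, the Charolais steers 0.842 and the KC steers 0.885. Without the 2 steers farthest from the median of miR-127 it was 0.842. The same smallest adjusted permutation p was reached by r and rho of miR-127 with miR-381 (r = 0.879, rho = 0.855), miR-411a with miR-381 (0.869 and 0.835), miR-381 with miR-410 (0.887 and 0.856) and miR-369-3p with miR-369-5p (0.754 and 0.707). Without the 2 farthest steers r of these pairs was 0.852, 0.85, 0.871 and 0.721. Within single breeds, r of the first 3 ran from 0.857 to 0.928, and that of the miR-369 arms was lowest in Angus (0.562) and higher in KC (0.762) and Charolais (0.878).

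**Figure D3:**
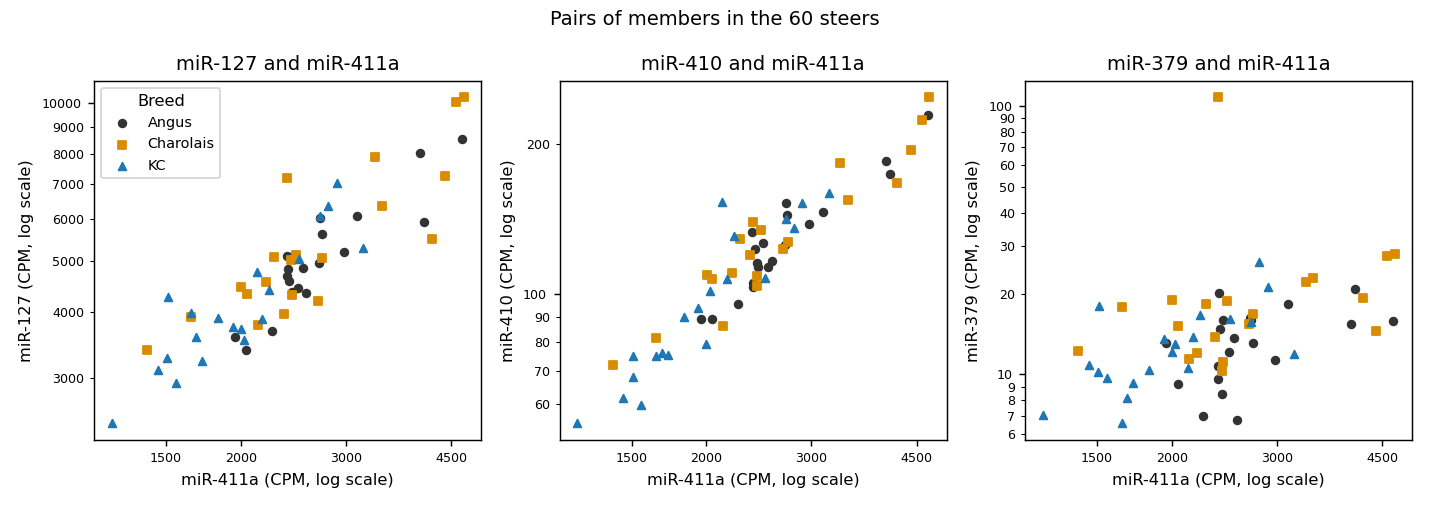
Levels (CPM, both axes log scale) of miR-127, miR-410 and miR-379 against miR-411a in the 60 steers, marked by breed. miR-127 and miR-410 follow miR-411a closely, whereas miR-379 scatters, with Charolais without RFI group replicate 7 at 107 CPM above all others.

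The arms of a hairpin were followed where both were listed. The 3p arm of miR-369 exceeded the 5p arm in 58 of 60 steers, with a mean ratio of 1.59 (SD 0.377, n = 60) and a range of 0.9 to 2.86. Breeds gave 1.62 ± 0.457 in Angus, 1.502 ± 0.332 in Charolais and 1.65 ± 0.331 for the KC steers (SD, n = 20 each), well within the spread of steers. The 5p arm of miR-411c exceeded the 3p arm in all 60 steers, with a mean ratio of 12.2 (SD 6.96) in the 59 steers with 3 or more counts of each arm. Its arms gave the weakest of the 6 tested correlations (r = 0.303, adjusted permutation p = 0.0195; rho = 0.308, adjusted permutation p = 0.0167). Without the 2 farthest steers r was 0.232, and the Angus value was 0.472, the Charolais value 0.315 and the KC value 0.125, so the relation rested in part on single steers and breeds. The 3p arm totalled only 622 counts over the 60 libraries, which limits this comparison. miR-380-3p totalled 12038 counts over the 60 libraries and miR-380-5p totalled 5.

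Breeds were compared in 1 fit over all 60 steers (edgeR quasi-likelihood test, Benjamini-Hochberg adjusted over 443 tested miRNAs), and every member called between KC and a purebred was lower in KC. A breed effect at adjusted p under 0.05 was called for 10 of the 35 tested members, against 18.1% of all tested miRNAs: miR-154b, miR-154c, miR-370, miR-379, miR-380-3p, miR-410, miR-411a, miR-411c-5p, miR-432 and miR-487b. KC against Charolais called 10 members (17.2% of all miRNAs), all lower in KC. KC against Angus called 4 members, a share at the background (11.3% of all), again all lower in KC. This count depended on the fit: it was 10 without KC without RFI group replicate 1, 8 with DESeq2 and 1 with only the RFI steers. Charolais against Angus called none (1.35% of all), and 4 of the 35 had an unadjusted p under 0.05, against 76 of all 443. DESeq2 called 1 there, miR-379 (log2 fold change 0.72, adjusted p = 0.0278). Calls over all miRNAs were not counted for DESeq2, the fit of RFI steers or the fits without single steers. The fitted change was below 0 in 31 of 35 members both for KC against Angus (median -0.283) and for KC against Charolais (median -0.325), while it was below 0 in 48.8% and 47.4% of all tested miRNAs. Because members move together from steer to steer, their directions are not separate observations, and these 2 comparisons share the KC steers.

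Summed levels ran from 5868 through a median of 8013 to 14288 CPM in Angus, from 5166 through 7976 to 16116 CPM in Charolais, and from 3941 through 6183 to 10670 CPM in KC. Breeds overlapped, with 15 of 20 KC steers below the Angus median and 15 of 20 below the Charolais median. The means were 8558 ± 2118, 9026 ± 3075 and 6767 ± 1840 CPM (SD, n = 20 each). miR-411a, the second most abundant member, ran from 1957 through 2517 to 4701 CPM in Angus, from 1397 through 2434 to 4728 in Charolais and from 1217 through 1971 to 3209 in KC. It was lower in KC by edgeR than in Angus (log2 fold change -0.44, SE 0.122, adjusted p = 0.0112) and than in Charolais (-0.43, SE 0.122, adjusted p = 0.00771), and 10 KC steers lay below the lowest Angus steer. miR-127 ran from 3384 through 4896 to 8530 CPM in Angus, from 3387 through 5034 to 10230 in Charolais and from 2455 through 3883 to 7036 in KC. By edgeR it was lower in KC than in Charolais (-0.38, SE 0.124, adjusted p = 0.0254), and against Angus the value was -0.28 (SE 0.124, adjusted p = 0.127).

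**Figure D4:**
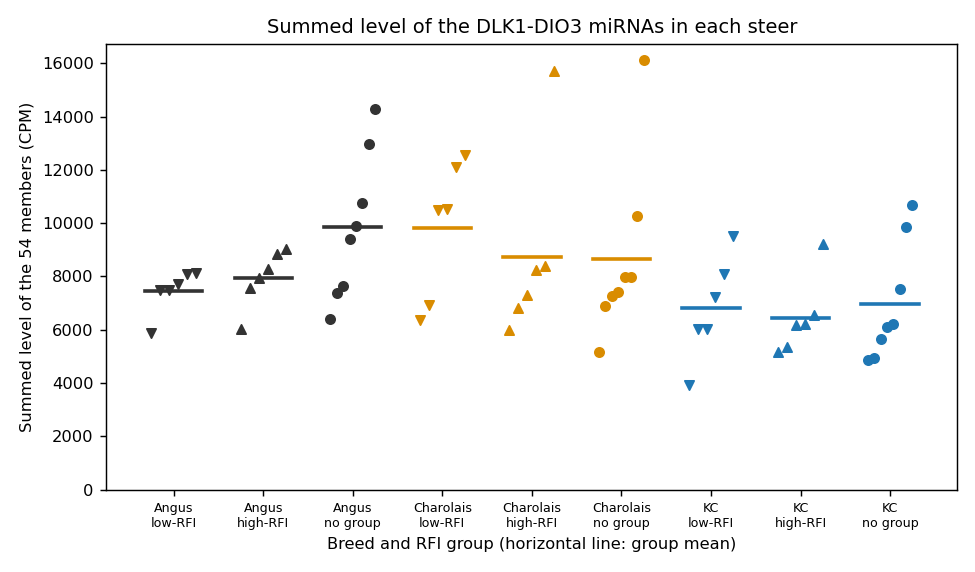
Summed level of the 54 members (CPM) in each of the 60 steers by breed and RFI group, with a horizontal line at the mean of each group. KC steers lie lowest (mean 6767 CPM, against 8558 in Angus and 9026 in Charolais), and low-RFI and high-RFI steers overlap in every breed.

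Among the members of the proximal group, miR-432, which lies opposite RTL1, ran from 7.41 through 12.9 to 25.3 CPM in KC and from 13.8 through 17.9 to 42.9 CPM in Charolais. It showed the smallest adjusted p of any member between these breeds (edgeR log2 fold change -0.52, SE 0.145, adjusted p = 0.00713), and 12 of 20 KC steers lay below the lowest Charolais steer. miR-370 averaged 3.61 ± 1.34 CPM in Angus, 2.51 ± 1.13 in Charolais and 2.315 ± 1.096 in the KC steers (SD, n = 20 per breed). It was lower in KC than in Angus (edgeR, -0.67, SE 0.186, adjusted p = 0.0111) but not detectably different from Charolais (-0.11, SE 0.195, adjusted p = 0.764). For miR-370 KC thus stood with Charolais, whose own difference from Angus was -0.56 (SE 0.192, adjusted p = 0.086).

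At the start of the distal group, miR-380-3p averaged 38.0 ± 11.03 CPM in KC and 52.9 ± 18.9 in Charolais (edgeR log2 fold change -0.43, SE 0.124, adjusted p = 0.00964). miR-379 averaged 13.1 ± 4.87 CPM in KC, 13.4 ± 4.04 in Angus and 21.7 ± 20.8 in Charolais. It was called lower in KC than in Charolais (-0.69, SE 0.203, adjusted p = 0.0121), yet without Charolais without RFI group replicate 7 the value was -0.35 and the call was lost (edgeR adjusted p = 0.0731). Within the array, miR-411c-5p fell by 0.50 on the log2 scale against Angus (SE 0.127, adjusted p = 0.00412 by edgeR), from 25.8 ± 8.33 to 17.8 ± 4.74 CPM, and by 0.41 against Charolais (adjusted p = 0.0153). miR-487b fell by 0.37 against Angus (SE 0.114, adjusted p = 0.0215), from 16.3 ± 3.92 to 12.5 ± 3.94 CPM.

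The other members called lower in KC than in Charolais by edgeR were miR-154b (-0.55, adjusted p = 0.0179), miR-154c (-0.40, adjusted p = 0.0278), miR-410 (-0.41, adjusted p = 0.0226) and miR-381 (-0.36, adjusted p = 0.0473). miR-410 averaged 99.9 ± 34.2 CPM in KC, 136.03 ± 46.6 in Charolais and 131 ± 34.4 in Angus. Without Charolais without RFI group replicate 5, the steer with the highest sum, the calls for miR-127, miR-381 and miR-410 were lost (edgeR adjusted p = 0.065, 0.131 and 0.0524), and that for miR-381 was also lost without any of 10 other single steers. miR-409a alone among the 14 abundant members had a fitted value above 0 in KC against both breeds (0.05 and 0.13), and neither passed the test. The plot of breed differences sets both comparisons side by side for all 35 tested members.

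**Figure D5:**
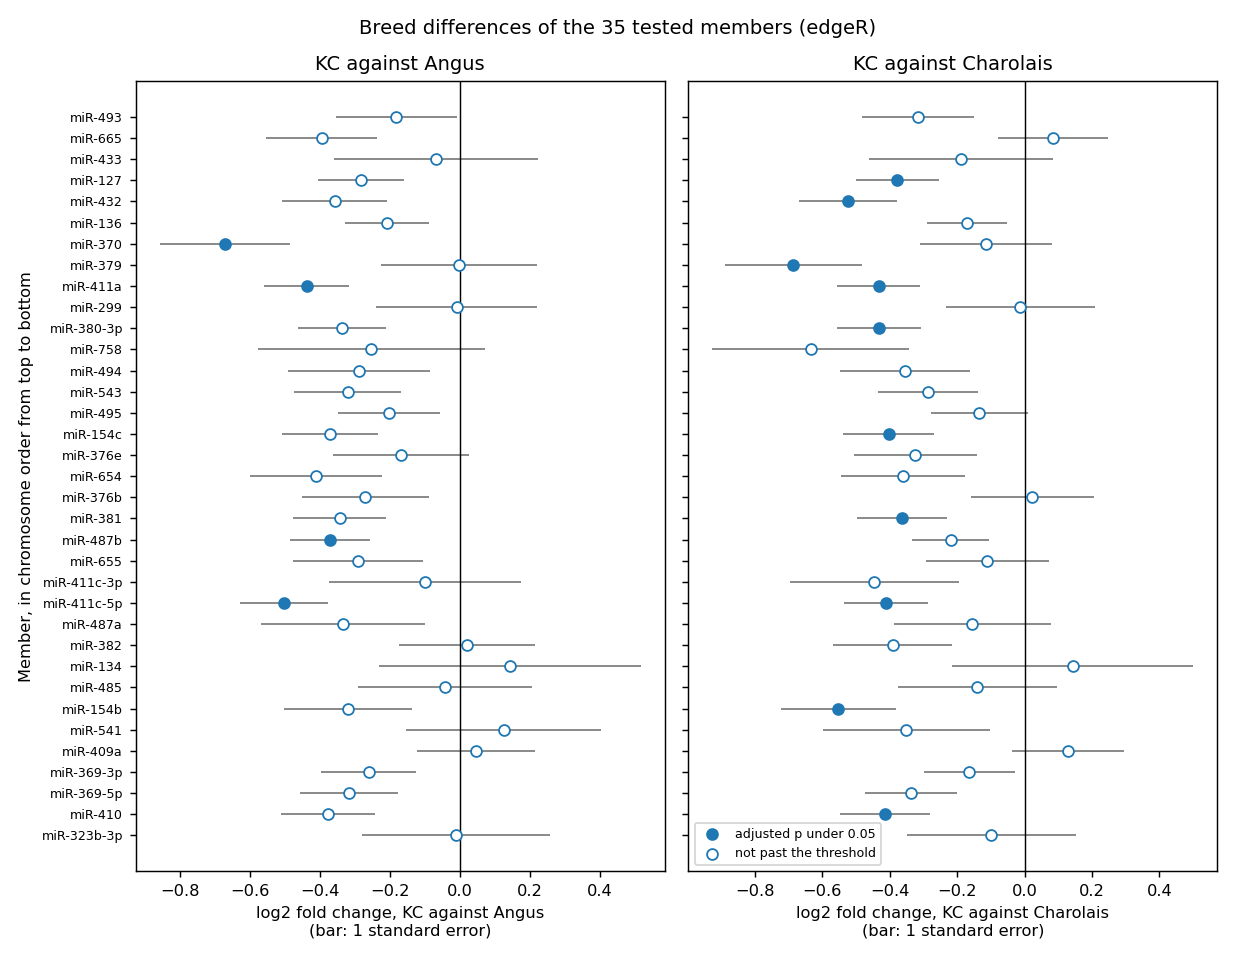
Fitted log2 fold change (bar, 1 standard error) of each tested member for KC against Angus and for KC against Charolais, in chromosome order. Filled points passed an edgeR adjusted p of 0.05 (4 and 10 members), and 31 of the 35 points lie below 0 in each panel.

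Families limited the comparison of breeds. With 1 steer kept per sire (23 steers) no member was called in any breed comparison, and the median change was -0.119 against Angus and -0.159 against Charolais, with 23 and 27 of 33 members below 0. With sire as a random block in limma voom, 4 members were called against Angus and 7 against Charolais. Without the largest KC family of 8 steers, whose summed level was 6999 ± 2086 CPM against 6612 ± 1736 in the other 12 KC steers, 2 and 8 were called. Breed also went with slaughter age, which was lowest in KC and highest in Charolais, and with sequencing depth, and age cannot be told apart from breed here. With all libraries thinned to 1930856 counts, 7 members were called against Angus and 9 against Charolais. In all these refits only calls of members were counted, so they cannot be set against the share of all miRNAs. In bulk liver, fewer cells of a type and less RNA per cell cannot be told apart.

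Sires were compared within breeds among sires with at least 3 steers. Summed levels of the Angus families averaged 10281 ± 2686 (n = 6), 8924 ± 1420 (n = 5) and 7167 ± 1010 CPM (n = 3). Those of the Charolais families averaged 7308 ± 1612 (n = 8), 9180 ± 2531 (n = 4), 10356 ± 2290 (n = 3) and 10109 ± 5205 CPM (n = 3), and those of the KC families averaged 6999 ± 2086 (n = 8) and 5466 ± 604 CPM (n = 3). The families overlapped in each breed. No member was called by edgeR in Angus (0 of 32, against 0% of all), Charolais (0 of 33, against 2.02%) or KC (0 of 30, against 0%). At an unadjusted p under 0.05 there were 6, 6 and 2 members, against 31 of 380, 37 of 396 and 14 of 378 miRNAs. DESeq2 called 0, 1 (miR-495) and 0 members, and its calls over all miRNAs were not counted.

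Low-RFI steers were compared with high-RFI steers within each breed, which addresses whether the region's output goes with feed efficiency. In Angus, miR-127 ran from 3384 through 4631 to 5116 CPM in low-RFI steers and from 3577 through 4896 to 5615 CPM in high-RFI steers. In Charolais it ran from 3784 through 5924 to 7872 CPM in low-RFI steers and from 3910 through 4685 to 10045 CPM in high-RFI steers. In KC it ran from 2455 through 4188 to 6090 CPM in low-RFI steers and from 3221 through 3793 to 5289 CPM in high-RFI steers. The groups overlapped in all 3 breeds. Summed levels of low-RFI and high-RFI steers were 7464 ± 830 and 7941 ± 1090 CPM in Angus, 9831 ± 2606 and 8738 ± 3526 in Charolais, and 6809 ± 1931 and 6444 ± 1463 for KC steers (SD, n = 6 per group), differences smaller than the spread within groups.

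The study's call rule was an unadjusted p under 0.05 with a fold change over 1.5. It was applied here with the edgeR quasi-likelihood test, whereas the study reported likelihood-ratio statistics. No member was called in Angus (0 of 30, against 2.68% of all miRNAs). In Charolais 1 was called (1 of 31, against 2.41%) and in KC none (0 of 30, against 1.82%), shares near or below the background. At an unadjusted p under 0.05 alone, 0, 2 and 0 members passed, against 15 of 373, 20 of 373 and 17 of 385 miRNAs. DESeq2 called no member under the study's rule in any breed. The call in Charolais was miR-485, a scarce member. Its level in low-RFI Charolais steers was 0.26, 0.638, 0.939, 1.23, 1.28 and 1.35 CPM, and in high-RFI steers it was 0.766, 0.96, 1.15, 1.158, 2.69 and 3.06 CPM. The groups overlap, 4 of these 12 steers had 3 counts or fewer, and 2 high-RFI steers stood above the rest. The log2 fold change was -0.87 (SE 0.406, unadjusted p = 0.0451, edgeR adjusted p = 0.857), and 6 of the 12 fits that left out a single steer lost the call. The paper reports miR-485 and miR-299 as higher in low-RFI Charolais steers. Here miR-485 had the opposite direction, and miR-299 was not called (log2 fold change 0.40, SE 0.386, edgeR unadjusted p = 0.312). The cause of this difference was not tested. With sire as a block the value for miR-485 was -0.25. Such a fit compares low-RFI with high-RFI steers only within sires that had both. In Charolais that left low-RFI replicate 1, a library that stood apart, against high-RFI steers of its family. In KC it left low-RFI replicate 4 alone against high-RFI steers of its family, so calls are not given for these 2 breeds. In Angus 1 member was called (miR-369-3p), with an edgeR adjusted p of at least 0.263.

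Across breeds, the mean effect of RFI over 36 steers was 0.03 for miR-127 (log2, SE 0.114, edgeR adjusted p = 0.97) and 0.02 for miR-411a (SE 0.114, adjusted p = 0.97). No member was called (0 of 34, against 0% of all), none had an unadjusted p under 0.05 (16 of all 426 did), and DESeq2 called none. The interaction of RFI group with breed was called for no member either (0 of 34, against 0% of all). None was under an unadjusted p of 0.05 (20 of all 426 were). Over the 14 abundant members the fitted change ran from -0.35 to 0.11 in Angus, from -0.22 to 0.31 in Charolais and from -0.20 to 0.17 in KC, with standard errors between 0.0917 and 0.321. With 6 steers a group and these errors, changes of that size were not detectable.

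Other miRNAs of the same region, outside the rule, moved with the members. The 3 of them that passed the filter, miR-1185 (1.39 CPM), miR-3956 (0.771 CPM) and miR-3957 (0.865 CPM), correlated with the mean of the standardized levels of the 14 members at 0.393, 0.346 and 0.273. The sum of all 7 listed miRNAs of this kind correlated at 0.607 (rho 0.612, 60 steers, breed means subtracted). Their fitted changes were below 0 in KC against both breeds (medians -0.219 and -0.323), and none passed the test. Among the 408 tested non-members the highest correlations with the members were those of miR-130a (0.566), miR-218 (0.498), miR-199b (0.493), miR-301a (0.484) and let-7i (0.439), and the lowest were those of miR-193b (-0.44), miR-20a (-0.472) and miR-30f (-0.487). The median was -0.0629. Only miR-130a passed 0.5, whereas 13 of the 14 members passed it against the mean of the others. These values share libraries and are given without a test.

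Marker lists for other cell types were set beside the members in the same way, as the correlation of each list's summed level with the members (60 steers). It was 0.352 (rho 0.384) for the mesenchymal and stellate list of 7 miRNAs, 0.162 (rho 0.0412) for the biliary list of 5, -0.00262 (rho -0.00639) for the endothelial list of 2, -0.0633 (rho -0.0157) for the muscle list of 8, -0.0714 (rho 0.0124) for the erythroid list of 3, -0.125 (rho -0.158) for the hepatocyte list of 6 and -0.296 (rho -0.207) for the leukocyte list of 5. Without the 2 libraries that stood apart the mesenchymal value was 0.425. The summed mesenchymal level ran from 117790 to 297700 CPM in Angus, from 139280 to 368630 in Charolais and from 130880 to 252550 in KC, nearly all of it miR-143, and the means were 166860, 178530 and 176360 CPM. In this list miR-199c was called higher in KC against both breeds, and the KC files list it with 3 precursors not listed for the other breeds, while miR-199a-5p was called higher against Charolais. Against Angus, 1 of 4 tested hepatocyte miRNAs and 1 of 5 tested leukocyte miRNAs were also called higher in KC (11.3% of all miRNAs were called). The other cell type lists held no call between KC and a purebred. In the muscle list miR-133c was at 0 and miR-206, miR-208a and miR-208b averaged 0.0192 CPM or less. The summed hepatocyte level ran from 173610 to 347530 CPM in Angus, from 207690 to 297410 in Charolais and from 210130 to 267280 in KC, and the leukocyte level from 2802 to 4583, from 3149 to 4851 and from 2941 to 5088 CPM. The part of these cell types in the members' levels was not tested.

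For comparison, other clustered and imprinted miRNAs were looked at. The tested members of the X-linked miR-424 and miR-450 cluster had a median pairwise correlation of 0.334 (5 miRNAs), or 0.574 over its 3 members of at least 10 CPM. The miR-17-92 cluster and its paralogues, which come from several loci, had 0.0891 (13 miRNAs) and 0.0813 (9 miRNAs). Their sums correlated with the DLK1-DIO3 members at 0.344 (rho 0.276) and -0.462 (rho -0.498). miRNAs of other imprinted loci (miR-296, miR-335 and miR-483) gave 0.16 (rho 0.113). The members' mean standardized level correlated at -0.06 (rho 0.117) with the library total.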

How the data were processed

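Small RNA libraries from the liver of 60 steers were analysed. Per the labels and the study's methods, the authors demultiplexed reads with bcl2fastq 2.17.1.14, checked them with FastQC 0.11.7, trimmed them with cutadapt 1.16, aligned them to the cattle genome UMD3.1 with Bowtie 1.1.1 inside miRDeep2 and quantified known miRNAs of miRBase. The deposited values are raw counts per mature miRNA and precursor. Counts of a mature miRNA listed under several precursors were averaged and rounded, as the study did. Among members, 2 pairs were listed for KC only, both of miR-376c. That miRNA fell below the filter on low counts and was not tested between breeds in the main fit. Near-identical miRNAs may exchange reads.

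Members were taken by name, and the members and lists were chosen with earlier results of these data known. A miRNA was tested where 6 or more steers reached 1 CPM, with edgeR 4.0.16 (R 4.3.3), TMM factors and the quasi-likelihood test. RFI calls needed an unadjusted p under 0.05 and a fold change over 1.5, as in the study. Breed, sire and interaction calls needed a Benjamini-Hochberg adjusted p under 0.05. Named members had a mean of at least 10 CPM or were called, and the genes most like them were the 5 highest and 3 lowest correlations. log2 CPM used a prior count of 0.5. Pairs were tested with 100000 permutations within breeds. Alternatives used DESeq2 1.42.0, limma 3.58.1, other filters and left-out steers. Sire numbers came from the labels, sequencing pools per steer are not given in the sources used here, and the scripts were tested on simulated data. Lists covered hepatocyte, endothelial, mesenchymal, leukocyte, erythroid, biliary and muscle markers, other DLK1-DIO3, other imprinted, X-linked and miR-17-92 miRNAs.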

Additional observations from a re-analysis of the deposited data

Results flagged for a closer look

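In the RFI groups of 6 steers, 90 sets of values (15 quantities in 6 groups) were screened for a steer far from the others, by the gap to its nearest neighbour over the range of its group. Chance sets apart about 1 in 20 groups, and 11 of 90 passed here. Since members move together, these are not 11 separate events.

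Charolais high-RFI replicate 6 accounted for 5 of them. Its miR-127 level was 10050 CPM (the others 3910 to 5124), its miR-411a 4590 CPM (1650 to 2742), its miR-410 223.2 CPM (81.5 to 134.1), its miR-380-3p 80.18 CPM (33.1 to 48.2) and its summed level 15690 CPM (5977 to 8407). KC high-RFI replicate 6 stood above its group in miR-127 at 5289 CPM (3221 to 3894), in miR-487b at 19.74 CPM (8.36 to 12.4) and in the sum at 9223 CPM (5160 to 6552). Angus low-RFI replicate 3 stood below its group in miR-411a at 2046 CPM (2388 to 2575) and in the sum at 5868 CPM (7482 to 8114). Angus high-RFI replicate 3 was low in miR-432 at 14.36 CPM (18.5 to 20.8). None of these 4 steers is a library that stood apart over all miRNAs.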

How the results depend on the processing

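The changes of called members, those of miR-127 and miR-411a by RFI across breeds and the 6 tested correlations kept their direction under the alternatives run. Other members were not followed singly, and some changed sign. Without Angus high-RFI replicate 5, 27 of 35 lay below 0 for KC against Angus, against 31 in the main fit. The median change of the tested members for Charolais against Angus, 0.0198, also turned its direction. It was -0.0265 under voom with sire as a block, -0.013 without Charolais without RFI group replicate 5 and -0.0064 without Charolais high-RFI replicate 6, with 18 members below 0 each time. For KC the median stayed below 0 (-0.341 to -0.119 against Angus, -0.47 to -0.159 against Charolais). No paired analysis was possible because the replicate numbers only name steers. Alternatives on members left out of library sizes, an earlier dispersion estimate, voom with sire as a block, the largest KC family and the 2 libraries that stood apart were chosen after seeing the data, as was leaving out miR-379 and miR-409a.

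By RFI group, sire as a block gave 1 call in Angus, which rested on the few steers of sires with both labels. In Charolais and KC that fit rested on a single low-RFI steer, and its calls are not given. The likelihood-ratio test, DESeq2, at least 10 counts in every steer, summed precursors, adjusted p, members left out of library sizes and the earlier dispersion estimate each gave 0 in Charolais. Leaving out single steers gave 0 to 0 calls in Angus, 0 to 1 in Charolais and 0 to 1 in KC (miR-382 without low-RFI replicate 2, miR-299 without high-RFI replicate 6).

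Between breeds, leaving out single steers gave 6 to 14 calls in the joint test, 6 without KC low-RFI replicate 4 or 5 or KC without RFI group replicate 3. It gave 0 to 1 for Charolais against Angus (miR-379), 7 to 14 for KC against Charolais, and 4 to 10 for KC against Angus. The last was 7 without Angus low-RFI replicate 6, Charolais low-RFI replicate 1 or KC low-RFI replicate 3, 8 without Angus low-RFI replicate 3 or KC high-RFI replicate 6, and 10 without KC without RFI group replicate 1. With 1 steer per sire (fewer steers) all of these but the RFI counts were 0, and with a fold change over 1.5 the joint test gave 2. Charolais against Angus gave 1 with DESeq2 and 1 after thinning (miR-370). KC against Angus gave 8 with DESeq2, 7 thinned, 1 with only RFI steers, 8 with members left out of library sizes, 2 without the largest KC family and 7 without the 2 libraries. Sires in Charolais gave 1 with the DESeq2 likelihood-ratio test. In the refits by RFI group, breed and sire only calls of members were counted. Whether these counts moved more than those of other miRNAs is therefore not known.

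The median correlation of members was 0.769 at 10 CPM or more, 0.8002 without miR-379 and miR-409a too, 0.184 thinned and 0.497 in KC alone. Without miR-127 the sums were 3395 (Angus), 3446 (Charolais) and 2539 CPM (KC). Depth limits members under 3 CPM, whose correlations and changes are uncertain. The causes of these moves were not tested.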

Other observations

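For miR-379 and miR-409a, which followed the other abundant members least closely, the miRNAs outside the region with the highest correlations are given here. These were picked after the values were seen and carry no test. miR-379 correlated most with miR-143 (r = 0.651 over 60 steers with breed means subtracted, 0.512 without the 2 libraries that stood apart), miR-10b (0.612 and 0.33) and miR-24-3p (0.61 and 0.391). miR-409a correlated most with miR-1271 (0.796 and 0.699), miR-99b (0.781 and 0.679) and miR-100 (0.703 and 0.539). miR-143 is abundant in mesenchymal cells, and miR-99b and miR-100 belong to the miR-99 family. Among members, miR-379 correlated at 0.657 with miR-409a, or 0.7 without these 2 libraries, above its value with miR-143 both times. miR-409a correlated at 0.759 with miR-127, below its value with miR-1271, and at 0.861 without the 2 libraries, above it.

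The sum of the miR-17-92 cluster and its paralogues, which are known to be high in dividing cells, ran against the members in each breed (-0.449 in Angus, -0.44 in Charolais and -0.51 in KC, 20 steers each). Most of this sum was miR-92a (6874 CPM) and miR-25 (1988 CPM). Taken singly, the miRNAs of this list had a median correlation of -0.17 with the members. Values of both sides come from the same libraries and are given as a description.

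In steers with an RFI label, 4 of 34 tested members had a fitted value below 0 for Charolais against Angus (median 0.243), while over all 60 steers 15 of 35 did (median 0.0198). Of all tested miRNAs, 42% (median 0.0371) and 53.5% (median -0.0147) lay below 0 in these fits. Members move together, so their directions are not separate observations. Angus steers without an RFI label, which also came from the ends of the RFI range, had the highest mean sum of the Angus groups. It was 9842 ± 2757 CPM (n = 8), against 7464 ± 830 and 7941 ± 1090 CPM (n = 6 each) in the low-RFI and high-RFI steers. Most of these unlabelled steers came from the Angus families of 6 and of 5 steers. Those had the highest mean sums of the Angus families, at 10281 ± 2686 and 8924 ± 1420 CPM. Both means include the unlabelled steers, and both families also held steers with an RFI label. Label and sire thus overlapped, and neither this difference nor the part of sire in it was tested.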
